A study of Mus musculus with 8 samples.

Results

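The RNAs of 10 genes were followed in intestinal epithelial cells (IECs) that had or lacked the RNA helicase DDX5. The genes encode the granins chromogranin A and B (Chga, Chgb) and the hormones or hormone precursors Gcg, Pyy, Cck, Sct, Nts, Gip, Sst and Tac1. They were taken by symbol from the 2 deposited gene tables, one for the ileum with 38649 genes and one for the colon with 28349. All 10 were found in both tables, out of 40178 genes listed in either. The libraries are bulk RNAseq of IECs released from the gut wall by EDTA, from mice aged 8 weeks according to the labels. The paper describes no selection by EpCAM; its flow cytometry of the small intestine found EpCAM-expressing cells enriched after the EDTA step. WT IEC mice carried intact Ddx5 (Ddx5+/+ Villin1Cre+). DDX5ΔIEC mice carried loxP-flanked Ddx5 on both chromosomes (Ddx5 fl/fl Villin1Cre+). Every mouse, controls included, therefore carried the Villin1Cre transgene, which is driven by a promoter active in the gut epithelium as a whole and not in a single epithelial lineage. Each genotype was represented by 2 mice, each of which gave an ileum and a colon library, so that 4 mice gave 8 libraries.

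Enteroendocrine cells are scattered, hormone-secreting cells of the gut epithelium. They arise from crypt progenitors that switch on the transcription factor Neurog3, store peptides in dense-core granules packed with granins, and release them when nutrients or bacterial products reach the lumen. Different cells make different hormones, and the mixture changes along the gut: GIP, secretin and cholecystokinin belong mainly to the small intestine, whereas PYY and INSL5 are typical of the colon. In whole IEC RNA, a lower or higher level of such a gene can come from the number of cells or from the RNA in each cell, and these cannot be told apart here.

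Stretches of sequence before the RefSeq transcription start of the granin genes and of Sst are shown. Chga and Chgb were both higher in DDX5ΔIEC ileum and share the core of a sequence element that Sst, which was not called there, also holds. Sct and Pyy, which were called higher there too, hold neither the element nor its core. Whether the element has a part in the changes was not tested. Windows of 250 bases before the RefSeq transcription start (GRCm38.p6) were available for all 10 genes. The cAMP response element TGACGTCA, searched on both strands, stood in 2 of the 10 windows, Chgb and Sst, against 1.62% of the windows of 27025 genes. Its core TGACGT stood in 3 of the 10, Chga, Chgb and Sst, against 6.56% of all windows; the core lies within the full element, so that the counts overlap. Stretches of 30 bases, read 5′ to 3′ on the strand of the gene, are given below with the full element or its core in capitals.
Chga, chr12:102554886-102554915, plus strand: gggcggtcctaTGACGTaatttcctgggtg
Chgb, chr2:132781559-132781588, plus strand: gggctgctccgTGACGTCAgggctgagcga
Sst, chr16:23890874-23890903, minus strand: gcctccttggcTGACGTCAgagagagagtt
The capitals begin 44, 72 and 48 bases before the RefSeq start of Chga, Chgb and Sst. In GENCODE, which gives the gene positions used elsewhere, Chgb and Sst start further upstream, so that their stretches lie within an annotated exon there, whereas that of Chga lies outside the gene. For Gcg, the most clearly raised hormone of DDX5ΔIEC colon, 150 bases before the start are shown with the E-box CAGATG in capitals.
Gcg, chr2:62483654-62483803, minus strand: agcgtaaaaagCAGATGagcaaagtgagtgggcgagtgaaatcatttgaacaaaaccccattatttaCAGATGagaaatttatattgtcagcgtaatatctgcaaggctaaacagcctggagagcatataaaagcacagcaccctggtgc
CAGATG, again on both strands, occurred in 4 of the 10 windows of 250 bases, Gcg, Cck, Sct and Tac1, and in 14.5% of all windows. A match describes the letters of these windows and does not show that a factor binds.

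Between 11571061 and 22984283 reads were counted on genes per library. Ddx5 was 699 and 699 CPM (counts scaled to a common library total with edgeR's TMM method over the 8 libraries) in WT IEC ileum and 339 and 326 in DDX5ΔIEC ileum, and 770 and 705 in WT IEC colon and 367 and 354 in DDX5ΔIEC colon, so that each library matched its label. The gene table counts all exons and does not show the deleted part alone. DDX5ΔIEC ileum replicate 2 had 19.5% of its counts on Gm10800, Gm10801 and Gm21738, which resemble repeats, against at most 4.05% in the other libraries. All 8 epithelial markers, Epcam and Vil1 among them, had at least 3035 counts in every library. The enteric neuron list summed to between 14.5 and 20.3 CPM in the ileum libraries and between 2.65 and 4.41 in the colon libraries, and most of its counts were Ret and Chat; the neuronal factor Hand2 had at most 1 count in any library and was at 0 in all 4 colon libraries.

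The hormone mixture of the IECs differed between ileum and colon in WT IEC. Levels of different genes were compared per base of exon, as each gene's share of the length-scaled counts of the 10 genes, a quantity that does not depend on how libraries are scaled. In WT IEC ileum, Sct, which encodes secretin, the hormone that stimulates bicarbonate secretion, was first with 24.8% ± 0.447 (SD, n = 2 mice). Gcg, the precursor of glucagon-like peptides, followed with 17.1% ± 2.91 and Nts, the precursor of neurotensin, with 16.6% ± 2.28; the mice overlapped between these 2 genes. Chgb was 11.1% ± 0.363, Pyy 9.78% ± 0.397, Chga 6.99% ± 0.649, Sst 6.78% ± 0.594 and Gip 3.99% ± 2.71 (SD, n = 2 mice). Cck at 1.86% ± 0.245 and Tac1, the precursor of substance P, at 0.983% ± 0.179 were last. In WT IEC colon, Pyy, which encodes the satiety peptide YY, was first with 34.8% ± 3.61, before Chgb with 21.7% ± 1.90, Gcg with 16.4% ± 0.390 and Chga with 10.7% ± 0.334 (SD, n = 2 mice). Sct was 8.11% ± 0.435 and Nts 3.70% ± 0.760 there. Pairs of neighbours were scored in the order by TMM-scaled CPM per kilobase, which unlike the shares depends on how libraries are scaled. Of these 9 pairs, the 2 mice of one gene lay above both of the other in 7 in WT IEC ileum and 8 in WT IEC colon. The numbers were 5 in DDX5ΔIEC ileum and 4 in DDX5ΔIEC colon. On the shares, pairs changed in both directions: in DDX5ΔIEC ileum Pyy and Chga then no longer overlapped, whereas Gip and Cck did. In the DDX5ΔIEC tissues the leading gene was the one that led in WT IEC, Sct in the ileum (27.4% ± 7.32) and Pyy in the colon (41.7% ± 8.70; SD, n = 2 mice).

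**Figure D1:**
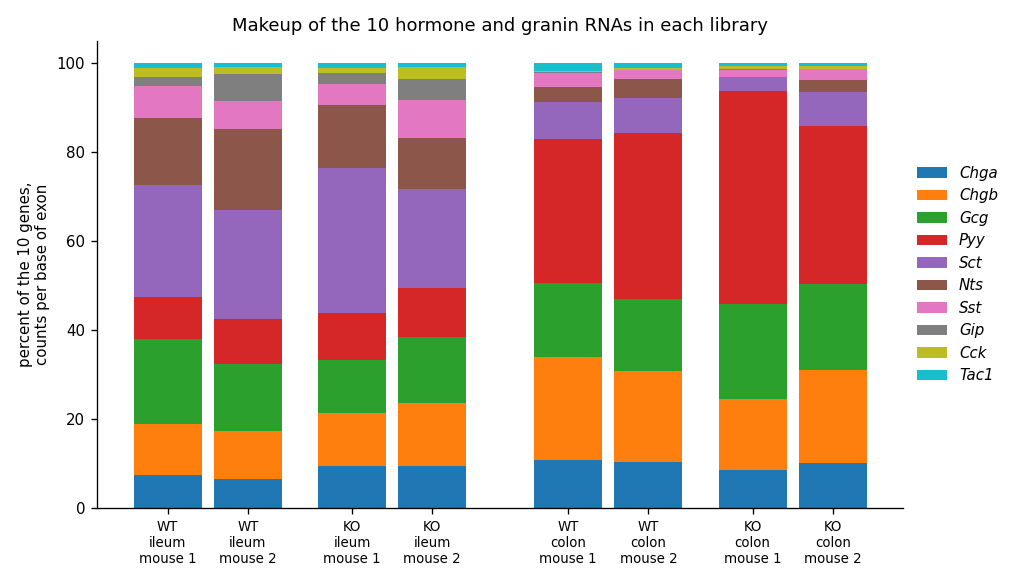
Stacked bars give, for each of the 8 libraries, the percent of the length-scaled counts of the 10 genes that each gene takes; mouse 1 and mouse 2 are the replicates of that genotype. Sct takes between 22.2% and 32.6% in the ileum libraries and between 3.02% and 8.42% in the colon libraries, and Pyy takes between 32.2% and 47.8% in the colon libraries and at most 10.9% in the ileum libraries.

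For each gene by itself, ileum and colon were then compared as CPM in a fit of all 8 libraries with edgeR's quasi-likelihood test, in which a gene was called at a Benjamini-Hochberg adjusted p under 0.05. In WT IEC, 2 of the 10 genes were called higher in the ileum and 4 lower, against 17.4% and 16.8% of the 16178 genes tested. Gip, the incretin of the proximal small intestine, was 1.06 and 3.19 CPM in ileum. In colon it had 2 counts in one WT IEC library and 0 in the other. The 69 ileal counts against 2 give a ratio of 39.9 (95% exact counting interval 10.6 to 336), which covers counting error only; the gene entered this fit through its ileal counts. Cck, whose product empties the gallbladder, was 1.98 and 1.73 CPM in ileum and 0.367 and 0.352 in colon, 5.12-fold higher (log2 difference 2.36, SE 0.40, adjusted p = 0.00236).

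Pyy, Chgb, Chga and Tac1 were called lower in WT IEC ileum than in WT IEC colon. Pyy was 4.47 and 4.99 CPM in ileum and 19.5 and 24.1 in colon, a log2 difference of −2.21 (SE 0.18, adjusted p = 5.23e-05). The granin Chgb was 23.3 and 23.4 CPM in ileum and 60.4 and 57.0 in colon, a log2 difference of −1.33 (SE 0.19, adjusted p = 0.0011). Both granins and both hormones were thus lower in each ileum library than in either colon library of WT IEC. Chga followed with −0.98 (SE 0.19, adjusted p = 0.00446) and Tac1 with −0.98 (SE 0.26, adjusted p = 0.0202). The log2 differences of Sct (1.24), Nts (1.78), Sst (0.97) and Gcg (−0.32) did not pass, with adjusted p from 0.0602 to 0.0897 in the quasi-likelihood test. With the mouse as a block, Sst, the somatostatin gene, passed in WT IEC (0.97, adjusted p = 0.0276), without a filter on low counts Sct, Nts and Sst passed, Sct passed in DESeq2, and Gcg passed with upper quartile scaling (−0.43, adjusted p = 0.0279). Tac1 did not pass without either WT IEC ileum library or without WT IEC colon replicate 1 (−0.77).

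In DDX5ΔIEC, 5 of the 10 genes were called higher in the ileum and 3 lower, against 18.0% and 17.3% of all genes tested. Gip, which entered the fit through its ileal counts, is among the 5. Sct was 25.5 and 13.1 CPM in ileum and 2.15 and 6.42 in colon (log2 difference 2.16, SE 0.45, adjusted p = 0.00692). Nts, whose product slows motility of the upper gut and aids fat uptake, was 21.3 and 13.3 CPM in ileum and 0.276 and 4.55 in colon (2.79, SE 0.73, adjusted p = 0.0182). The 2 colon mice of DDX5ΔIEC thus lay further apart in Nts than the ileum mice did. Sst (1.40, adjusted p = 0.0166) and Cck (1.21, adjusted p = 0.0304) were also higher in the ileum in the quasi-likelihood test, and Gip had 50 counts in the ileum against 1 in the colon, a ratio of 100.1 (95% exact counting interval 17.2 to 4031). The call of Cck was lost in DESeq2 and in 6 of the 8 fits that left out 1 library, and its difference was 0.78 without DDX5ΔIEC ileum replicate 2. That of Sst was lost without DDX5ΔIEC ileum replicate 2 or DDX5ΔIEC colon replicate 1, and that of Nts without DDX5ΔIEC ileum replicate 1; the difference of Nts was 5.94 without DDX5ΔIEC colon replicate 2. Pyy (−2.12, adjusted p = 6.61e-05), Gcg (−0.82, adjusted p = 0.00165) and Chgb (−0.72, adjusted p = 0.0197) were lower; Chgb did not pass without replicate 2 of DDX5ΔIEC ileum or colon (−0.37 in the latter). Chga was 31.8 and 24.2 CPM in ileum and 26.2 and 36.9 in colon, with overlapping mice and a log2 difference of −0.17 (95% interval −0.60 to 0.26).

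**Figure D2:**
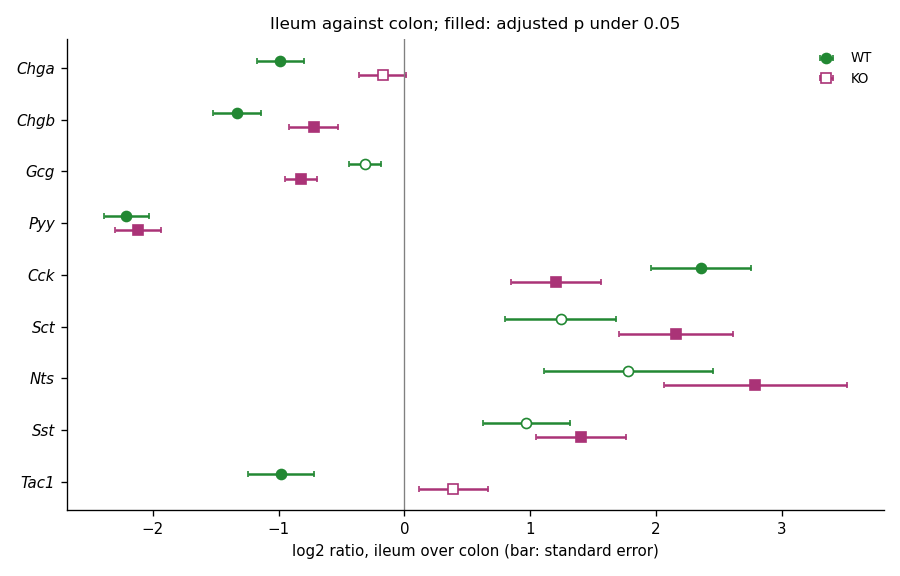
Points give the log2 ratio of ileum over colon for 9 of the 10 genes, in WT IEC (green circles) and DDX5ΔIEC (magenta squares), with standard errors as bars and filled symbols for an adjusted p under 0.05; Gip is left out because it has at most 2 counts in any colon library. Cck, Sct, Nts and Sst lie right of 0 and Gcg, Pyy and Chgb left of 0 in both genotypes, while Tac1 is at −0.98 in WT IEC and 0.39 in DDX5ΔIEC.

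The comparison of DDX5ΔIEC with WT IEC asked which enteroendocrine RNAs differ when the epithelium lacks DDX5. In the ileum, both granins and the hormone genes Sct and Pyy were higher in DDX5ΔIEC, and none of the 10 genes was called lower. A gene was called where its log2 change reached 0.5 up or down and its unadjusted p was under 0.05 in a quasi-likelihood fit (edgeR) that held the replicate number as a block; the p-values printed for genotype are those adjusted over all genes. By this rule 4 of the 10 genes were higher and 0 lower, against 3.87% and 3.48% of the 14068 genes tested. The fitted change was above 0 for all 10 genes, with a median of 0.49 on the log2 scale against −0.0046 over all genes tested. Both DDX5ΔIEC mice lay above both WT IEC mice in 6 of the 10 genes, and below both in none; 18.7% and 20.8% of all genes tested did so.

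Chga, the granin used as the general marker of enteroendocrine cells, was 15.3 and 14.1 CPM in WT IEC ileum and 31.8 and 24.2 in DDX5ΔIEC ileum. The mice did not overlap, and the 1.90-fold difference (log2 0.92, SE 0.16) was the only one of the 10 to pass adjustment over all genes in this fit (adjusted p = 0.0303). Its adjusted p was 0.336 without the block and 0.148 in DESeq2 with the block, and ranged from 0.000241 to 0.336 over the alternatives that kept every library. Chga is ENSMUSG00000021194.6 on chr12:102554969-102565028 (GRCm38, plus strand). Chgb, its paralog on chr2:132781278-132795079, was 23.3 and 23.4 CPM in WT IEC and 39.9 and 35.3 in DDX5ΔIEC, a 1.61-fold difference (log2 0.69, SE 0.15, adjusted p = 0.0733). Here too both DDX5ΔIEC mice lay above both WT IEC mice. Both granins passed the calling rule, which uses the unadjusted p, in every alternative fit and with each library left out in turn. Expressed per 10000 counts on 8 epithelial genes of the same library, Chga was 10.04 and 9.63 in WT IEC and 17.9 and 17.5 in DDX5ΔIEC, and Chgb 15.3 and 16.0 against 22.5 and 25.6.

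The hormone genes of the ileum were less uniform. Sct was 12.1 and 12.4 CPM in WT IEC and 25.5 and 13.1 in DDX5ΔIEC, so that the second DDX5ΔIEC mouse lay just above the controls (log2 0.62, SE 0.22, adjusted p = 0.289). Without DDX5ΔIEC replicate 1 the change of Sct was 0.11, and it also lost the call without either WT IEC library and without the block (0.67). Pyy was 4.47 and 4.99 CPM in WT IEC and 8.14 and 6.31 in DDX5ΔIEC (log2 0.62, SE 0.24, adjusted p = 0.329). Pyy lost the call without DDX5ΔIEC replicate 1 (0.42), WT IEC replicate 1 (0.54) or WT IEC replicate 2 (0.70), and in DESeq2 with the block (0.62).

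Tac1 and Sst also lay above the controls in both DDX5ΔIEC ileum mice but did not pass the test. Tac1 was 2.81 and 2.29 CPM in WT IEC and 4.58 and 3.21 in DDX5ΔIEC (log2 0.61, 95% interval −0.05 to 1.28). Sst, which restrains the release of other gut hormones, was 3.87 and 3.602 CPM in WT IEC and 4.21 and 5.56 in DDX5ΔIEC (log2 0.37, 95% interval −0.24 to 0.98). The remaining 4 genes overlapped between genotypes. Gcg was 21.3 and 17.6 CPM in WT IEC ileum and 21.2 and 20.3 in DDX5ΔIEC, with a 95% interval of the log2 change from −0.25 to 0.45. Nts was 13.96 and 17.9 against 21.3 and 13.3 CPM (−0.38 to 0.62). For Gip, at 1.06 and 3.19 against 2.06 and 2.99 CPM, and Cck, at 1.98 and 1.73 against 1.78 and 3.10, the intervals reached from −0.48 to 1.23 and from −0.52 to 1.20, so that increases of more than 2-fold could not be told from none at this depth.

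Ratios between 2 of the 10 RNAs need no scaling between libraries. Of the 9 count ratios computed, those of Sct, Gcg, Pyy, Tac1, Cck and Sst were all taken to Chga. They share this denominator, which was itself called higher in DDX5ΔIEC ileum. In the ileum 2 of the 9 were higher and 4 lower in both DDX5ΔIEC mice than in both controls. All 4 lower ones had Chga as the denominator. In the colon 2 were higher and 3 lower. No such share was computed over pairs of other genes. The count ratio of Gcg to Chga was 1.39 and 1.25 in WT IEC ileum and 0.668 and 0.841 in DDX5ΔIEC ileum, and that of Chga to Chgb 0.657 and 0.604 against 0.798 and 0.685. Gcg was thus lower relative to Chga, and Chga higher relative to Chgb, in each DDX5ΔIEC mouse. Levels scaled to the length-adjusted total of a library are not compared between libraries here, because genes under 200 bases of exon took between 19.9% and 62.9% of that total; on that scale the summed level of the 10 genes in DDX5ΔIEC ileum over WT IEC ileum was −0.27 on the log2 scale, against 0.46 as TMM-scaled CPM per kilobase.

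**Figure D3:**
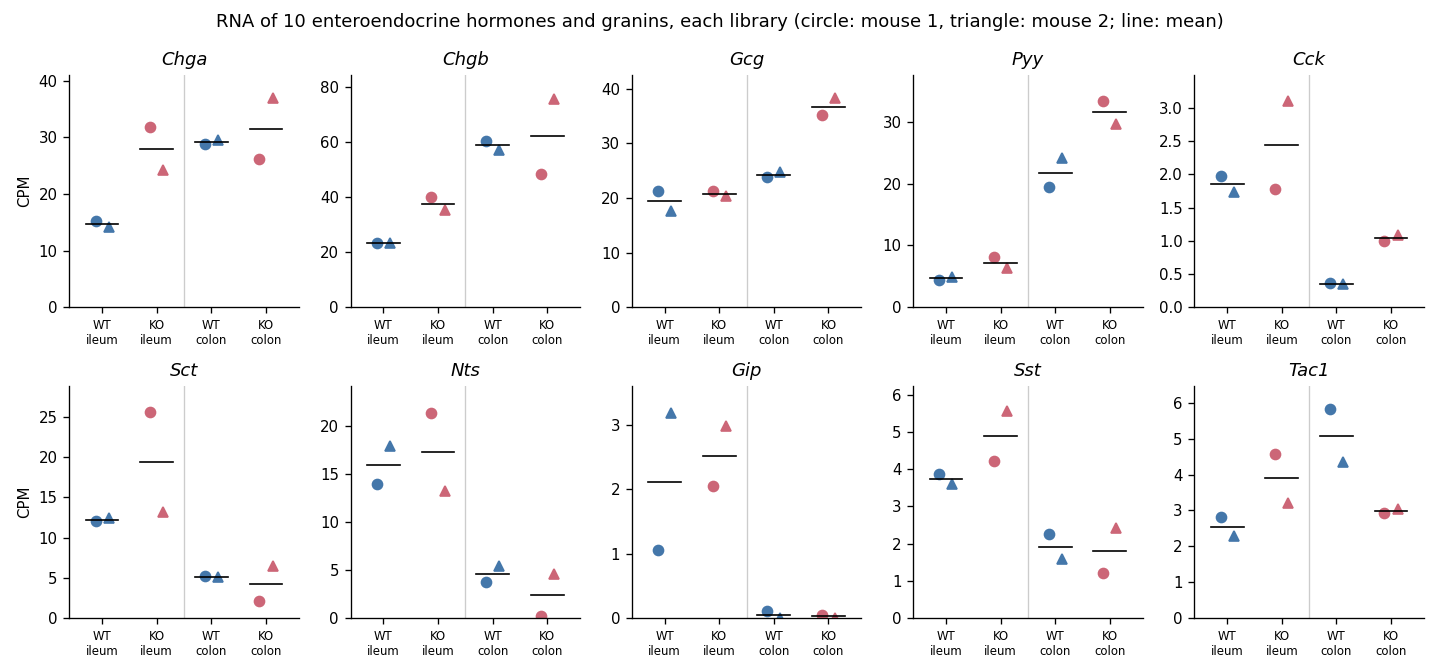
Each panel gives the CPM of a gene in the 8 libraries, WT IEC in blue and DDX5ΔIEC (KO) in red, with a line at the mean of the 2 mice and the ileum left of the colon; vertical axes start at 0 and differ between panels. Chga rises from 15.3 and 14.1 CPM to 31.8 and 24.2 in the ileum, whereas in the colon the DDX5ΔIEC mice, at 26.2 and 36.9, lie on both sides of the WT IEC mice.

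In the colon, Gcg, Pyy and Cck were called higher and Tac1 lower in DDX5ΔIEC, 3 and 1 of the 9 genes tested, against 3.04% and 3.67% of the 15362 genes tested; Gip, with at most 2 counts in a colon library, was not tested. No gene in the colon passed adjustment over all genes in edgeR with the block (1836 had an unadjusted p under 0.05, edgeR without the block passed 3 higher and 2 lower, and with upper quartile scaling 6 and 10). DESeq2 passed 49 higher and 68 lower with the block and 85 and 98 without it. In edgeR with the block the adjusted p of the 9 genes ranged from 0.241 to 0.953; that of Gcg was 0.0378 in DESeq2 without the block. The median log2 change of the 9 genes was 0.04, and both DDX5ΔIEC mice lay above both WT IEC mice in 3 of them and below in 1, against 23.8% and 20.7% of all genes tested.

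Gcg was 23.9 and 24.7 CPM in WT IEC colon and 35.1 and 38.3 in DDX5ΔIEC colon. The mice of each genotype lay close together, and the log2 difference was 0.59 (SE 0.10, adjusted p = 0.241). Gcg lies on chr2:62474530-62483650 (minus strand). Pyy, made by the same L cells, was 19.5 and 24.1 CPM in WT IEC and 33.3 and 29.6 in DDX5ΔIEC (1.44-fold, log2 0.52, SE 0.15, adjusted p = 0.332). Its change fell under the fold limit without DDX5ΔIEC replicate 1 (0.43), and it lost the call without WT IEC replicate 1 (0.37). Per 10000 epithelial counts, Gcg was 21.4 and 22.8 in WT IEC and 28.6 and 33.3 in DDX5ΔIEC, and Pyy 17.5 and 22.2 against 27.2 and 25.7.

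Cck was low in the colon, with 7 and 8 counts in WT IEC and 18 and 24 in DDX5ΔIEC, or 0.367 and 0.352 against 0.992 and 1.09 CPM. The 2.86-fold difference (log2 1.51, SE 0.41, adjusted p = 0.322) did not pass in DESeq2 or without either WT IEC library. Tac1 was 5.82 and 4.35 CPM in WT IEC and 2.92 and 3.05 in DDX5ΔIEC (log2 −0.76, SE 0.24, adjusted p = 0.347); the call was lost without WT IEC replicate 1 (−0.56) and in DESeq2 with the block (−0.77). Tac1 is also made by enteric neurons, whose marker list summed to 3.83 and 4.22 CPM in WT IEC colon and 2.65 and 4.41 in DDX5ΔIEC colon. Hand2 of this list was at 0 counts in all 4 libraries. Of the 10 genes listed, 3 were tested, with a median log2 change of 0.30. Chat was called lower, and the other 2 changed upwards without a call, Uchl1 by 0.84.

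The granins were not called in the colon, and their DDX5ΔIEC mice lay on either side of the controls. Chga was 28.8 and 29.5 CPM in WT IEC and 26.2 and 36.9 in DDX5ΔIEC (log2 0.09, 95% interval −0.27 to 0.45), and Chgb 60.4 and 57.0 against 48.5 and 75.4 (0.04, −0.44 to 0.52). Chgb was thus 1.56 times as high in one DDX5ΔIEC mouse as in the other, against 1.06 times between the WT IEC mice. The spread was larger for Nts and Sct. Nts had 72 and 123 counts in WT IEC colon and 5 and 100 in DDX5ΔIEC colon, which is 3.78 and 5.41 against 0.276 and 4.55 CPM. Its log2 change of −1.36 (95% interval −3.26 to 0.54) was −0.04 without DDX5ΔIEC replicate 1 and −4.05 without DDX5ΔIEC replicate 2. Sct was 5.19 and 5.14 CPM in WT IEC and 2.15 and 6.42 in DDX5ΔIEC, and its change of −0.41 became 0.30 without replicate 1 and −1.28 without replicate 2. Sst was 2.26 and 1.58 against 1.21 and 2.41 CPM. DDX5ΔIEC colon replicate 1 was therefore the lowest of the 4 colon libraries in Chga, Chgb, Sct, Nts and Sst and the highest in Pyy.

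Marker lists of other cell types were measured in the same libraries. Of all genes tested, 3.04% were called higher and 3.67% lower in the colon, and 3.87% and 3.48% in the ileum. Tph1, the enzyme that makes serotonin in enterochromaffin cells, was 14.3 and 18.4 CPM in WT IEC colon and 7.99 and 17.1 in DDX5ΔIEC colon. The goblet cell list summed to 46490 and 51808 CPM in WT IEC colon and to 27858 and 41505 in DDX5ΔIEC colon, with 2 of 8 genes called lower and none of the 8 at 0; in the ileum it was 28277 and 24345 against 33905 and 29701 CPM, with 2 called higher. The Paneth cell list summed to 15522 and 10946 against 14461 and 16808 CPM in the ileum, with 1 of 8 called higher. In the colon it summed to 1392 and 1577 against 219 and 429 CPM, with 2 of 5 tested genes called lower, Ang4 and Itln1. Most of the colon sum was Ang4, at 1310 and 1499 against 199 and 387 CPM. Lyz1, Mmp7, Defa17, Defa24 and Defa30 were each at most 2.09 CPM in any colon library, so that the colon sum follows Ang4 and not the list as a whole. The colonocyte list summed to 3482 and 3727 against 4397 and 4768 CPM, with 4 of 6 genes called higher. The leukocyte list, at 30.1 and 23.5 against 7.27 and 14.3 CPM, had 2 of 5 tested genes called lower. Tuft cell markers were lower in DDX5ΔIEC in both tissues, 7 of 7 tested genes each, with sums of 445 and 667 against 293 and 346 CPM in the ileum and 86.5 and 94.0 against 29.3 and 61.8 in the colon. The part of these cell types in the results for the hormones and granins was not tested.

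**Figure D4:**
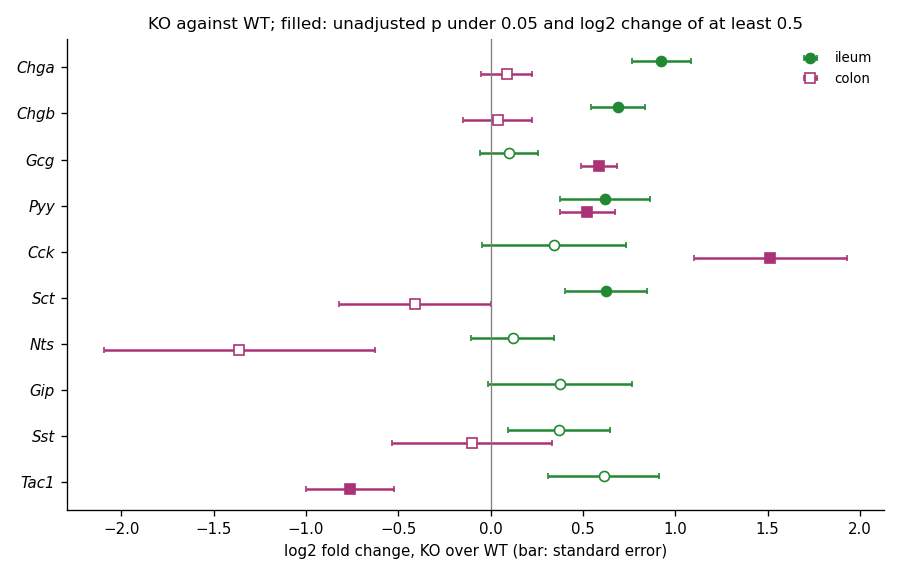
Points give the log2 fold change of DDX5ΔIEC over WT IEC for each gene in the ileum (green circles) and the colon (magenta squares), with standard errors as bars and filled symbols for genes called; Gip was not tested in the colon. Chga, Chgb, Sct and Pyy are filled in the ileum and Gcg, Pyy, Cck and Tac1 in the colon, so that Pyy is called in both.

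Whether the effect of genotype differed between the tissues was tested directly, over all 8 libraries. None of the 10 genes passed, with adjusted p from 0.956 upwards in edgeR's quasi-likelihood test, against 0.0124% of the 16178 genes tested; 3 had an unadjusted p under 0.05, and DESeq2 also passed none. Tac1 had the lowest p: its change was 0.61 in the ileum and −0.76 in the colon, a difference of 1.37 (SE 0.38, adjusted p = 0.956). Chga differed by 0.81 (95% interval 0.20 to 1.42) and Gcg by −0.51 (−0.92 to −0.09). The sets called in the ileum and in the colon are therefore not shown to be particular to either tissue.

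Other genes of the enteroendocrine programme were taken from lists that were chosen with earlier results of these data known. The counts and medians of these lists beside those of all genes are therefore descriptive and not an independent test. Among further granins and granin-like genes, Scg2, which encodes secretogranin II, was called higher in DDX5ΔIEC in both tissues. It was 1.80 and 1.94 CPM in WT IEC ileum and 4.02 and 3.63 in DDX5ΔIEC ileum (log2 1.04, SE 0.32, adjusted p = 0.214). In the colon it was 1.26 and 0.747 CPM in WT IEC and 3.47 and 2.00 in DDX5ΔIEC (1.43, SE 0.29, adjusted p = 0.264). Of this list, 1 of 3 tested genes was called higher in the ileum and 2 of 5 in the colon, and none lower, against 3.87% and 3.04% of all genes called higher. Scg3, the other gene called in the colon, changed by 0.87 (adjusted p = 0.418), and its call was lost in DESeq2 and with any 1 library left out. That of Scg2 was lost in DESeq2 with the block in both tissues, without WT IEC replicate 1 in the ileum and without WT IEC replicate 2 in the colon. The list's median log2 change was 0.69 in the ileum and 0.38 in the colon, against −0.0046 and −0.0004 over all genes tested.

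Of the genes for prohormone processing and granule release, 3 of 14 were called higher and none lower in the ileum, and 3 of 16 higher and 1 lower in the colon; of all genes, 3.87% and 3.48% were called higher and lower in the ileum and 3.04% and 3.67% in the colon. Rims2, a scaffold protein of vesicle release sites, moved most. It was 2.21 and 2.70 CPM in WT IEC ileum and 6.46 and 10.05 in DDX5ΔIEC ileum (log2 1.72, SE 0.26, adjusted p = 0.0204). In the colon Rims2 was 1.42 and 1.14 CPM in WT IEC and 6.28 and 7.19 in DDX5ΔIEC (2.39, SE 0.26, adjusted p = 0.147). Both tissues thus had every DDX5ΔIEC mouse above every WT IEC mouse, and the call held with each library left out. Cpe, the carboxypeptidase that trims hormone precursors, was 7.37 and 15.2 CPM in WT IEC ileum and 27.8 and 22.2 in DDX5ΔIEC ileum (1.23, adjusted p = 0.0743), and 5.56 and 5.27 against 8.05 and 7.74 in the colon (0.53, adjusted p = 0.383). Rab3c, a small GTPase of secretory vesicles, was called in the ileum (1.39, adjusted p = 0.182) and Ptprn, a granule membrane protein, in the colon (0.87, adjusted p = 0.379). Pcsk1, the convertase that cuts proglucagon into GLP-1, was lower in the colon, at 23.3 and 24.5 CPM in WT IEC and 9.70 and 19.8 in DDX5ΔIEC (−0.77, adjusted p = 0.349), and −0.28 without DDX5ΔIEC replicate 1. The call of Cpe in the ileum held with each library left out. The calls of Cpe and Ptprn in the colon, Rab3c and Pcsk1 were each lost without 2 or more of the 4 libraries in turn.

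**Figure D5:**
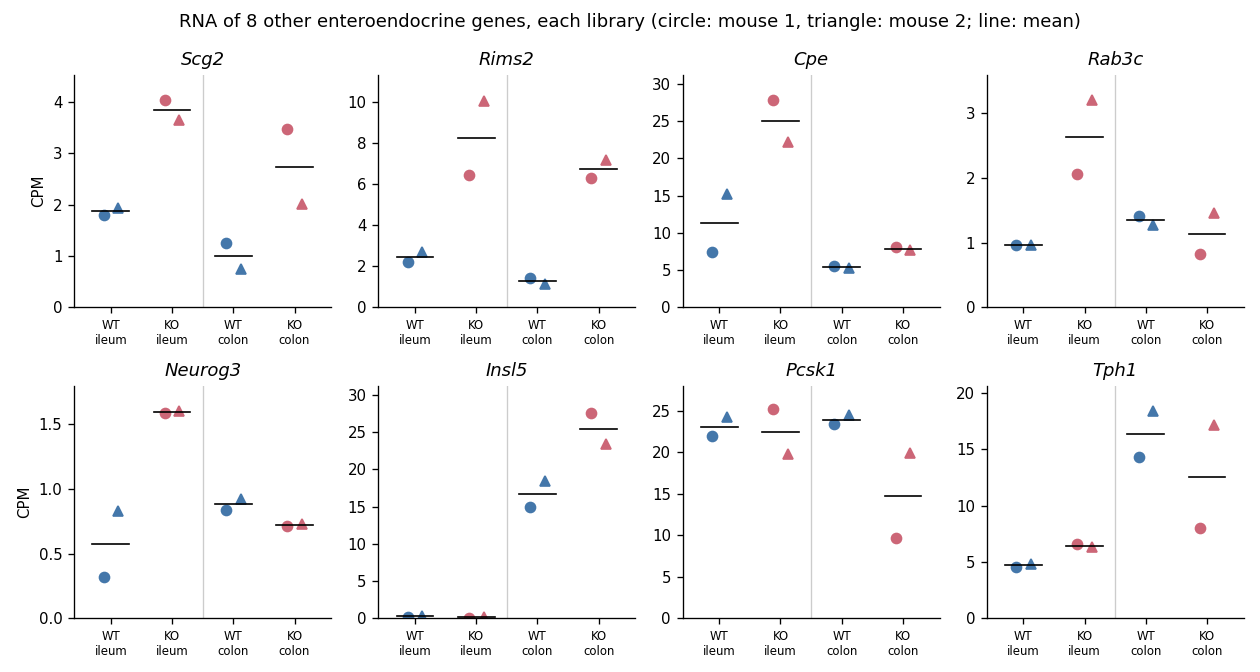
Each panel gives the CPM of an enteroendocrine gene outside the group of 10 in the 8 libraries, drawn as for the hormones and granins: WT IEC in blue, DDX5ΔIEC (KO) in red, lines at the mean of 2 mice. Scg2, Rims2 and Cpe are higher in both DDX5ΔIEC mice than in either WT IEC mouse of that tissue, and Insl5 is between 14.9 and 27.6 CPM in the colon and at most 0.277 CPM in the ileum.

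Among enteroendocrine transcription factors, 3 of 13 tested genes were called higher and 2 lower in the ileum, and 1 of 17 higher and none lower in the colon, where 3.04% and 3.67% of all genes were called; the shares in the ileum were 3.87% and 3.48%. Neurog3, the factor that starts the endocrine lineage, had 7 and 12 counts in WT IEC ileum and 17 and 15 in DDX5ΔIEC ileum, or 0.323 and 0.831 against 1.59 and 1.60 CPM (log2 1.56, SE 0.52, adjusted p = 0.245). The call of Neurog3 did not hold in DESeq2, nor without WT IEC replicate 1 or either DDX5ΔIEC library. Insm1 (1.02, adjusted p = 0.342) and Foxa2 (0.75, adjusted p = 0.293) were also called higher in the ileum, and Rfx3 (−0.70, adjusted p = 0.153) and St18 (−0.67, adjusted p = 0.239) lower. In the colon Isl1, a factor of several hormone cell types, was called higher (0.93, adjusted p = 0.405). Each of these calls was lost with 2 or 3 of the 4 libraries left out in turn. The change was 0.93 for Neurog3 without WT IEC replicate 1, 0.29 for Insm1 without DDX5ΔIEC replicate 2, −0.34 for Rfx3 without DDX5ΔIEC replicate 1, −0.33 for St18 without WT IEC replicate 2 and 0.54 for Isl1 without DDX5ΔIEC replicate 1. The medians of the list were −0.02 in the ileum and 0.18 in the colon, so that the list as a whole lay near 0.

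Of 13 further hormones and amine enzymes, 2 could be tested in each tissue. Insl5, the colonic L-cell peptide of the insulin family, was 14.9 and 18.4 CPM in WT IEC colon and 27.6 and 23.4 in DDX5ΔIEC colon (log2 0.60, SE 0.16, adjusted p = 0.321). In this it resembled Gcg and Pyy, with both DDX5ΔIEC mice above both WT IEC mice. Like Pyy, it fell under the fold limit without DDX5ΔIEC replicate 1 (0.47). Gcg was 0.52 at the lowest with 1 library left out. The call of Insl5 was lost in 2 of the 4 fits that left out 1 library, and its lowest change was 0.45. Between tissues, Insl5 had 4 and 4 counts in WT IEC ileum against 284 and 419 in WT IEC colon, and it entered that fit through its colon counts. Tph1 was lower in WT IEC ileum than in WT IEC colon (log2 −1.81, adjusted p = 0.00349 in the quasi-likelihood test). Ghrl, the ghrelin gene, had at most 11 counts in any library. By genotype, neither Tph1 nor Ghrl was called in the ileum, but both DDX5ΔIEC mice lay above both WT IEC mice. Tph1 was 4.52 and 4.85 CPM in WT IEC ileum and 6.55 and 6.31 in DDX5ΔIEC ileum (log2 0.46, adjusted p = 0.473 in the quasi-likelihood test). Ghrl was 0.415 and 0.554 against 1.03 and 1.07 CPM (log2 1.13, adjusted p = 0.424 in that test). In the colon Tph1 changed by −0.46, with overlapping mice and no call.

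Of the nutrient and microbial sensors, 1 of 5 was called higher and none lower in the ileum, Ffar4, a receptor for long-chain fatty acids (0.67, adjusted p = 0.286), with overlapping mice and a change of 0.18 without DDX5ΔIEC replicate 1. In the colon, 2 of 6 were called lower and none higher. Of all genes, 3.87% and 3.48% were called higher and lower in the ileum and 3.04% and 3.67% in the colon. Ffar2, a receptor for short-chain fatty acids, was 19.4 and 21.9 CPM in WT IEC colon and 10.03 and 16.0 in DDX5ΔIEC colon (−0.70, adjusted p = 0.295), and Abcc8, the sulfonylurea receptor, 5.30 and 6.15 against 1.76 and 4.05 (−1.05, adjusted p = 0.337). Without DDX5ΔIEC replicate 1 the change of Ffar2 was −0.38 and that of Abcc8 −0.51; the call of Abcc8 was lost without either WT IEC library. Of 20 receptors for the 10 hormones, none was tested in the ileum and 6 were tested in the colon. Sstr1, a somatostatin receptor, was 11.6 and 9.76 CPM in WT IEC colon and 22.7 and 17.6 in DDX5ΔIEC colon (0.90, SE 0.13, adjusted p = 0.217), and Npy1r, a receptor of the peptide YY family, 3.25 and 2.99 against 9.15 and 4.96 (1.10, SE 0.27, adjusted p = 0.307). Both had at most 6 counts in any ileum library.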

How the data were processed

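RNAseq of ileal and colonic IECs was analysed in 8 libraries. The authors sequenced stranded, ribosome-depleted RNA in paired ends, aligned with STAR 2.6.1a to mm10 and counted uniquely mapped reads over exons with featureCounts; whole-number counts were deposited per gene and tissue. The tables also hold the authors' normalized values and their DESeq2 1.18.1 comparison (fold changes, errors, p-values), which were not used. The authors' model had a term for harvest, and which mice shared a harvest is not given in the sources used here.

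The counts were tested with edgeR 4.0.16 (R 4.3.3): filterByExpr with a minimum count of 10, TMM, and the quasi-likelihood test with Benjamini-Hochberg adjustment over all genes tested. Genotypes were compared within a tissue with the replicate number as a block. Tissues, and the difference between tissues, were tested over all 8 libraries with 4 group means; a gene listed in only one table was counted as 0 in the other. Deviations from the group means correlated at 0.221 between same-numbered WT IEC and DDX5ΔIEC libraries in the ileum and −0.0192 in the colon, and at 0.165 and 0.198 between tissues of the same mouse in WT IEC and DDX5ΔIEC; mouse numbers in the study's tables give the latter pairing. The fits were also run on simulated counts, drawn with the same spread for all genes and no effect of the replicate. That run checks the code and does not show how the fits behave on these libraries. With 2 mice per group the smallest two-sided p of an exact permutation test is 0.333, so each test rests on a spread estimated jointly over genes. Library totals limit the precision, and counting intervals cover counting error only.

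The genes and lists were chosen with earlier results of these data known. Named are the 10 genes, Ddx5, and of each list the called genes (at most 5 per comparison); Tph1, Insl5 and Ghrl are also the highest per length of their list. Marker genes of other cell types are named only beside a result. Alternatives were no block, the mouse as a block, RLE and upper quartile normalization, other filters, DESeq2 1.42.0, 1 fit of all libraries, no repeat-like genes, and each library left out without the block, where a lone library is assumed to vary like the others. Positions come from GENCODE vM21 (GRCm38), where all 10 identifiers have the files' version and share no exon with another gene, and promoter sequences from RefSeq.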

Additional observations from a re-analysis of the deposited data

How the results depend on the processing

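The count of the 10 genes called in the ileum by genotype, 4, was 2 in DESeq2 with the replicate block and 3 without the replicate block in edgeR; with 1 library left out it ranged from 2 to 5. In the colon it was 4 without the block and 3 in DESeq2 with it (Gcg and Pyy kept, Cck and Tac1 lost, Nts called lower at −1.79), and ranged from 1 to 6 with 1 library left out; without WT IEC replicate 1 it was 1. The count of genes that differed between ileum and colon in DDX5ΔIEC, 8, ranged from 5 to 8 with 1 library left out and was 5 without DDX5ΔIEC ileum replicate 2; in WT IEC, 6, it ranged from 5 to 9. With the mouse as a block these counts were 8 and 7. The count for the difference between tissues stayed 0 in all alternatives. Over all genes, those called by genotype in the ileum were 422 higher and 364 lower without the block against 545 and 489 with it, and those that passed adjustment 1 against 98; in the colon 5 passed without the block and 0 with it, against 49 higher and 68 lower in DESeq2 with the block, 85 and 98 in DESeq2 without it, and 6 and 10 with upper quartile normalization; without DDX5ΔIEC replicate 2, 1070 and 1436 passed. In DESeq2 with the block, 22 higher and 17 lower passed in the ileum. The summed level of the 10 genes per length, DDX5ΔIEC over WT IEC in the ileum, moved from −0.27 to 0.46 on the log2 scale with TMM-scaled CPM per kilobase, and that of ileum over colon in WT IEC from −0.26 to −0.78 without genes under 200 bases, an alternative chosen after seeing the data.

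For single genes, sign changes of the log2 change arose only where 1 library was left out. In the genotype comparison of the ileum, the ranges were −0.032 to 0.24 for Gcg, −0.062 to 0.73 for Cck, −0.25 to 0.44 for Nts (−0.044 without WT IEC replicate 1) and −0.34 to 1.24 for Gip. In the colon they were −0.17 to 0.32 for Chga, −0.29 to 0.35 for Chgb, −1.28 to 0.30 for Sct and −0.66 to 0.33 for Sst (0.19 without WT IEC replicate 1). For Chga in DDX5ΔIEC ileum against colon the range was −0.40 to 0.094, and for the difference between tissues −0.11 to 0.29 for Pyy, −1.86 to 3.22 for Gip and −0.10 to 0.027 for Ddx5. None of these was called in the main comparison. The cause of these changes was not tested. With 2 mice per group and hormones such as Cck at 7 to 24 counts in the colon, depth and mouse number limit what could be detected.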
